A study of Homo sapiens with 6 samples.

Results

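The genes described here are 33 regulators of the G2/M transition and of mitosis, measured in SK-Hep1 cells given anti-miR-21 and in mock-treated cells. They were chosen by symbol from a list that leaves out the KIF genes but holds the kinesin-like CENPE. The rule uses no measured value, but the genes were chosen with earlier results of these data known, so their counts are descriptions only. All 33 were on the array. The array annotation assigns 71 of its 54613 probe sets other than controls to 1 of these genes alone, and 59 of the 71 had a mean log2 value of at least 4 and were tested. All 33 genes kept at least 1 probe set, among 10848 genes tested of 19775 annotated. A further probe set lists CENPA together with SLC35F6 and was assigned to neither gene.

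SK-Hep1 is an established human cell line derived from an adenocarcinoma of the liver. The treated group held 3 arrays from cells transfected with 20 nM of anti-miR-21, an oligonucleotide that blocks the microRNA miR-21, by a lipid reagent. The mock group held 3 arrays from cells that received no oligonucleotide, so that the effect of carrying any oligonucleotide cannot be told apart from that of anti-miR-21, and RNA of both groups was collected 16 hours later. All samples come from the same line, they are called biological replicates without word on separate cultures, and p values therefore measure the spread between these samples.

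Entry into mitosis is driven by the kinase CDK1 bound to cyclin B, which is held inactive by the kinase WEE1 and switched on by phosphatases of the CDC25 family. Aurora and Polo-like kinases then build the spindle, the spindle checkpoint delays chromosome separation until every kinetochore is attached, and the anaphase-promoting complex ends mitosis by marking cyclin B and securin for destruction. Most of these genes are transcribed together late in the cell cycle, through CCAAT boxes bound by NF-Y and through the cell cycle genes homology region, read by MuvB complexes with B-MYB or FOXM1. In RNA from a whole culture, fewer cells in G2 and mitosis and less transcript per such cell cannot be told apart.

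The microRNA that the oligonucleotide targets is shown for orientation, with its seed (bases 2 to 8) in capitals. Its position in RefSeq GRCh38.p14 is chr17:59841273-59841294 on the plus strand.
hsa-miR-21-5p: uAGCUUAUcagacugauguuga

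RefSeq promoter windows were matched to 26 of the 33 genes, 6 of them with several start sites, which gave 36 windows of 300 bases. FOXM1, AURKA, TPX2, BIRC5, BUB3, TTK and UBE2C are not among the 26. CCAAT was present on either strand in 28 of 36 windows (77.8%), against 34.6% of all 35116 windows of that length. TTTGAA, the usual core of the homology region, was present on either strand in 21 of 36 (58.3%), against 15.2% of all windows. TTTAAA, a variant that reads the same on both strands, was present in 12 of 36 (33.3%), against 12.2%. A window with CCAAT and either of these cores was found in 21 of 36 (58.3%), against 9.27%. The motifs were searched without regard to overlap, and a match is a description of the letters and does not show a used site.

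The stretches below run from 110 bases before to 40 bases after the start of 6 genes whose values are given in full further on. They are shown so that the position of each motif can be read beside the values. Capitals mark every CCAAT, each core TTTGAA or its variant TTTAAA, and the reversed forms ATTGG or, for the core, TTCAAA. For CDC25C the table holds 4 starts, and the one with the most kinds of motif in the stretch is printed.
CDC25C, chr5:138331765-138331914, minus strand: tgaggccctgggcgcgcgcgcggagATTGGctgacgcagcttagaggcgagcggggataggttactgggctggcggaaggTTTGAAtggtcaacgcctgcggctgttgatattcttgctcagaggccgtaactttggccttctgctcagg
CCNB1, chr5:69167040-69167189, plus strand: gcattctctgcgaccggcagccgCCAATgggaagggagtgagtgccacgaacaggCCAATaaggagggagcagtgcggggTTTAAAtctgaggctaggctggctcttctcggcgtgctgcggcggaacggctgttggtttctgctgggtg
PLK1, chr16:23678779-23678928, plus strand: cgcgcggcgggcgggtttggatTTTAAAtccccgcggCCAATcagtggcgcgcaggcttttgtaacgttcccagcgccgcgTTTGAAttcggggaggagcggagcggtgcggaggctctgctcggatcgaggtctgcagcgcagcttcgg
CDC20, chr1:43358871-43359020, plus strand: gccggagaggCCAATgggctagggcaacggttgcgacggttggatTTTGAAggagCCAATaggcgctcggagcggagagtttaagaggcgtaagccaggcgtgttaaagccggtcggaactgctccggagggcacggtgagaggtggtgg
MAD2L1, chr4:120066809-120066958, minus strand: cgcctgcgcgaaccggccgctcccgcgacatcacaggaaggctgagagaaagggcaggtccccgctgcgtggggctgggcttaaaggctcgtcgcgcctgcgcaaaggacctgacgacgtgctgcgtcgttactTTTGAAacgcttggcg
TOP2A, chr17:40417857-40418006, minus strand: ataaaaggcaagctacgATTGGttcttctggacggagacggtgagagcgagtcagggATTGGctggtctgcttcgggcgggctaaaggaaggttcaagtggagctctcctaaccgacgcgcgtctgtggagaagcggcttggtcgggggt
In CDC25C a CCAAT box lay 85 bases before the start and a homology core 30 bases before it. In CCNB1 they lay at 55 and 30 bases, with a second box further upstream, and in PLK1 at 73 and 29 bases. MAD2L1 held a TTTGAA 25 bases after its start and no CCAAT in the stretch shown. In the matched table the 18 genes with both kinds of motif in 1 window had a median log2 fold change of -0.085, and the 8 without had -0.105.

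Whether blocking miR-21 changed the mitotic program was asked by comparing the 3 anti-miR-21 arrays with the 3 mock arrays on the authors' log2 values with limma. Few of the differences passed the test. Of the 59 tested probe sets, 2 fell with anti-miR-21 (3.39%, against 1.07% of all 22408 probe sets), 1 of CDC25C and 1 of MAD2L1, and 0 rose (against 1.10%). In either direction 2.17% of all probe sets passed. At an unadjusted p under 0.05, 15 of the 59 (25.4%) passed, against 17.8% of all probe sets. For 1 value a gene, the tested probe set with the highest mean was taken, and on this value 0 of the 33 genes passed an adjusted p of 0.05 in either direction, against 2.13% of all genes tested. At an unadjusted p under 0.05, 9 of the 33 (27.3%) passed, against 18.1% of all genes.

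The log2 fold change, anti-miR-21 minus mock, was negative for 28 of the 33 genes (84.8%), against 56.7% of all genes, and its median was -0.081, against -0.018. The 33 values ran from -0.43 for CDC25C to 0.15 for ECT2. In 11 of the 33 (33.3%) all 3 anti-miR-21 arrays lay below all 3 mock arrays, against 15.1% of all genes, and in 0 of them did they lie above, against 10.4%. Standard errors ran from 0.0475 to 0.143, and the smallest log2 fold change of any called gene on the array was 0.25 in size. Without mock replicate 1, 22 of the 33 were negative, against 55.5% of all genes, and the median was -0.051, against -0.021.

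**Figure D1:**
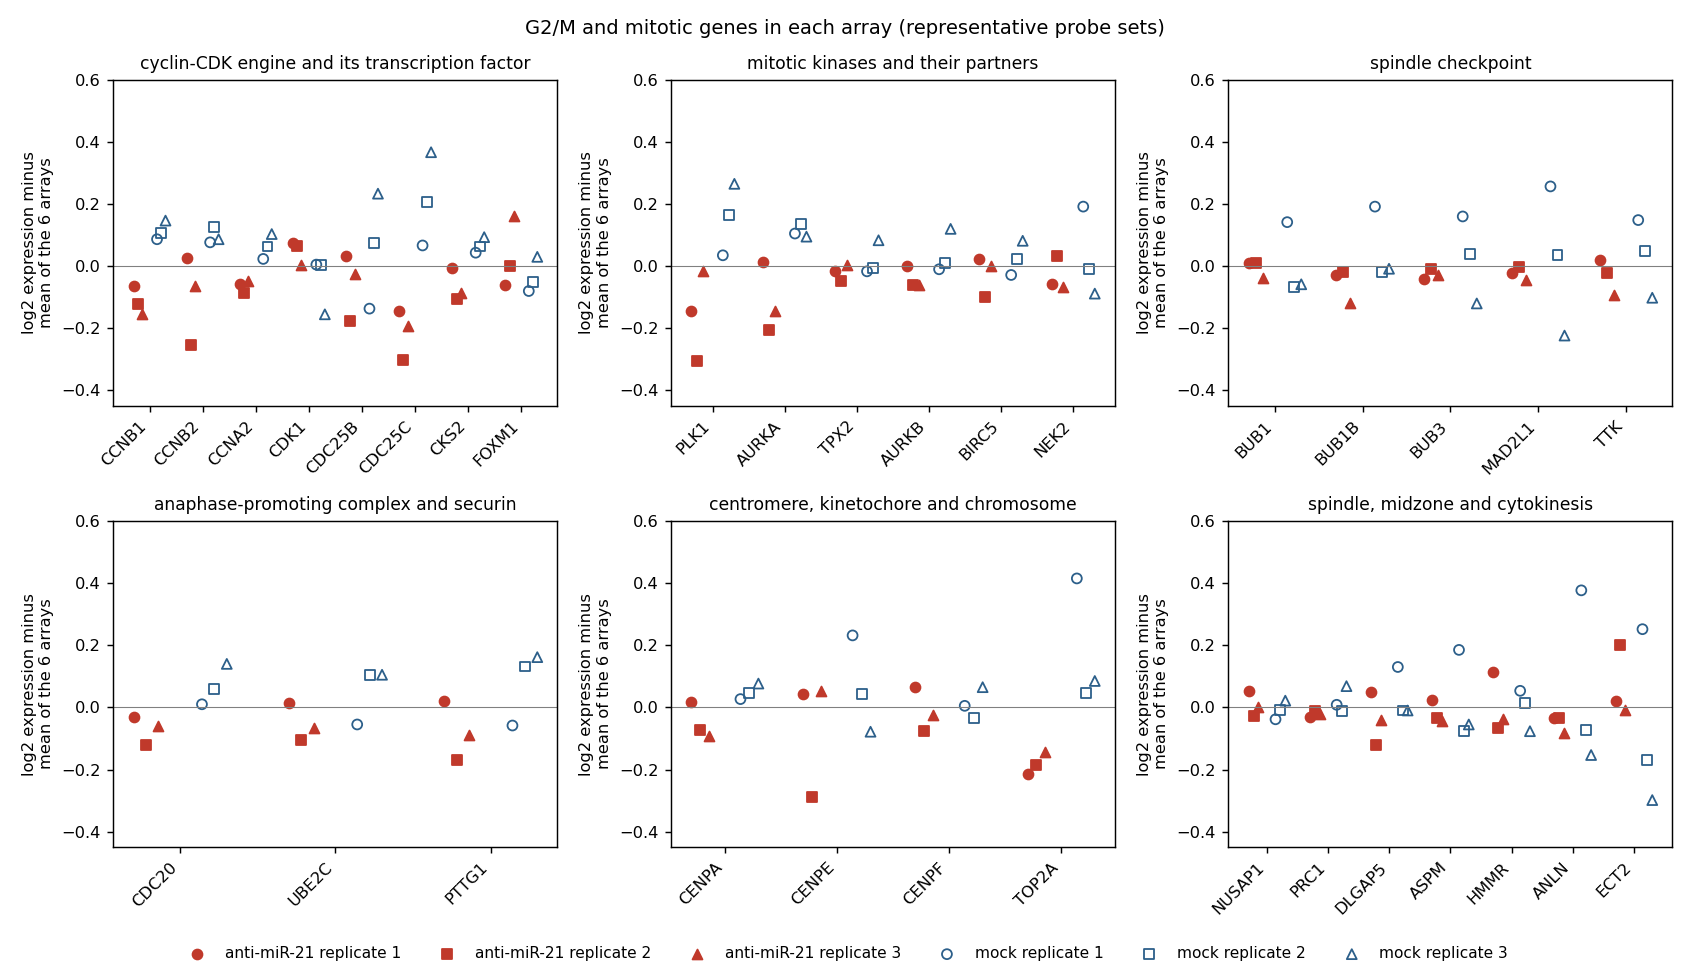
Log2 expression of the representative probe set of each of the 33 genes, minus its mean over the 6 arrays (y axis), in 6 panels by role, with filled red symbols for the 3 anti-miR-21 arrays, open blue symbols for the 3 mock arrays and a symbol shape for each replicate number. CDC25C, CCNB1, PLK1, AURKA and TOP2A have all red symbols below all blue ones, whereas in the spindle checkpoint panel mock replicate 1 lies above and the other arrays overlap.

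Of the 8 genes of the cyclin-CDK engine, 0 passed on the representative, against 2.13% of all genes. Below 0 were 6 of them (75.0%, against 56.7% of all genes), and 5 had an unadjusted limma p under 0.05 (62.5%, against 18.1%). CDC25C encodes the phosphatase that removes the inhibitory phosphates from CDK1, and both of its tested probe sets were lower with anti-miR-21. Probe set 217010_s_at measured 7.94, 7.59 and 7.87 in the anti-miR-21 arrays, against 8.47, 8.56 and 8.57 in the mock arrays. The groups did not overlap, and the gap between them was wider than the spread within either. CDC25C fell 1.66-fold on this probe set (log2 fold change -0.74 ± 0.095 SE, limma adjusted p = 0.018). The brighter representative, 205167_s_at, measured 9.14, 8.98 and 9.09 in the anti-miR-21 arrays, against 9.35, 9.49 and 9.65 in the mock arrays. These groups did not overlap either, with mock replicate 1 the closest to the treated arrays, and the difference did not pass (-0.43 ± 0.0883 SE, limma adjusted p = 0.0698). It passed without mock replicate 1 (-0.50, limma adjusted p = 0.0492), with the filter at a mean of 6 (0.0485) and with both probe sets averaged (-0.58, limma adjusted p = 0.0151). Without anti-miR-21 replicate 3, mock replicate 2 or mock replicate 3, the adjusted p of 217010_s_at was 0.0666, 0.0885 and 0.075, at log2 fold changes of -0.77, -0.72 and -0.72.

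CCNB1, the cyclin that activates CDK1 for mitosis, had representative values of 13.82, 13.76 and 13.73 in the anti-miR-21 arrays, against 13.97, 13.99 and 14.03 in the mock arrays. Every treated array was below mock, yet the difference of -0.22 ± 0.0506 SE did not pass (limma adjusted p = 0.0858), and it passed only when the variances were moderated with trend and robust settings (adjusted p = 0.033). Its other probe set also had all treated arrays below mock (-0.13, limma adjusted p = 0.378). CCNB2, a second B-type cyclin, and CCNA2, the cyclin of S phase and G2, differed by -0.19 ± 0.0776 and -0.13 ± 0.0475 SE (limma adjusted p = 0.267 and 0.237). CKS2, a small subunit of the CDK complexes, was at -0.13 ± 0.0513 SE (limma adjusted p = 0.261). In all 3 the groups did not overlap on the representative, whereas they did on the second probe set of CCNA2 (-0.10, limma adjusted p = 0.468). All treated arrays lay below mock in 5 of the 8 genes of the engine (62.5%, against 15.1% of all genes).

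CDK1, the catalytic subunit, measured 13.67, 13.66 and 13.60 in the anti-miR-21 arrays, against 13.60, 13.60 and 13.44 in the mock arrays, and the groups met at their edges. On this representative its log2 fold change was 0.09 (limma adjusted p = 0.497), with a 95% interval of -0.06 to 0.24 that leaves out a fall of the size seen for CDC25C. Probe sets 203214_x_at and 210559_s_at were both at 0.05, with intervals of -0.12 to 0.23 and -0.13 to 0.23. The interval of 231534_at, at -0.01, was -0.95 to 0.92 and does not leave out such a fall. FOXM1, the transcription factor of late cell cycle genes, was at 0.07 (95% interval -0.10 to 0.24, limma adjusted p = 0.662). CDC25B, the phosphatase that starts CDK1 activation at the centrosome, was at -0.11 (95% interval -0.36 to 0.13, limma adjusted p = 0.611), with mock replicate 1 at 10.99 and the other mock arrays at 11.20 and 11.36.

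Among the mitotic kinases, PLK1, which promotes mitotic entry and spindle assembly, measured 9.43, 9.27 and 9.56 in the anti-miR-21 arrays, against 9.61, 9.74 and 9.84 in the mock arrays. Every treated array was below every mock array, by a narrow margin between anti-miR-21 replicate 3 and mock replicate 1. The difference was -0.31 ± 0.0931 SE (limma adjusted p = 0.153). AURKA, the centrosomal Aurora kinase, measured 13.48, 13.26 and 13.32 in the anti-miR-21 arrays, against 13.57, 13.60 and 13.56 in the mock arrays. The groups did not overlap and anti-miR-21 replicate 1 lay nearest to mock (-0.22 ± 0.0673 SE, limma adjusted p = 0.156).

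The probe sets of AURKA had mixed signs. A second bright one, 204092_s_at, was at -0.18 (limma adjusted p = 0.242), and a dim one, 208080_at, was at 0.13 (limma adjusted p = 0.504), with 6.49, 6.18 and 6.18 in the anti-miR-21 arrays, against 6.14, 6.17 and 6.15 in mock. TPX2, which activates AURKA on the spindle, AURKB, the kinase of the chromosomal passenger complex, and BIRC5, or survivin, its partner in that complex, differed by -0.04, -0.08 and -0.05 on the log2 scale (limma adjusted p = 0.753, 0.494 and 0.714). NEK2, a kinase that separates centrosomes, was at -0.06 (limma adjusted p = 0.741). All 6 genes of this group were below 0, against 56.7% of all genes, and 0 passed, against 2.13%.

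The spindle checkpoint genes differed little on their representatives, with log2 fold changes between -0.11 and -0.01 and overlapping groups in all 5. BUB1B, the checkpoint protein BUBR1, measured 12.23, 12.24 and 12.14 in the anti-miR-21 arrays, against 12.45, 12.24 and 12.25 in the mock arrays. TTK, the kinase MPS1 that starts checkpoint signalling, measured 11.57, 11.53 and 11.46 in the anti-miR-21 arrays, against 11.70, 11.60 and 11.45 in the mock arrays. In both, mock replicate 1 was the highest of the 6 arrays (limma adjusted p = 0.476 for BUB1B and 0.716 for TTK). The rest lay between 12.14 and 12.25 in BUB1B, whereas in TTK the mock arrays were spread out, with mock replicate 3 the lowest of all. The kinase BUB1 and the kinetochore adaptor BUB3 were at -0.01 and -0.05 (limma adjusted p = 0.94 and 0.759).

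MAD2L1 encodes MAD2, the checkpoint protein that captures CDC20, and 1 of its 3 tested probe sets passed. This was 236312_at, the dimmest of the 3 though well above the filter. It measured 7.78, 7.77 and 7.75 in the anti-miR-21 arrays, against 8.16, 8.14 and 8.01 in the mock arrays. All treated arrays lay below mock, and MAD2L1 fell 1.26-fold on this probe set (log2 fold change -0.34 ± 0.0568 SE, limma adjusted p = 0.0384). The representative, 203362_s_at, measured 13.22, 13.24 and 13.20 in the anti-miR-21 arrays, against 13.50, 13.28 and 13.02 in the mock arrays. The treated arrays lay inside the mock range (-0.05, 95% interval -0.33 to 0.22, limma adjusted p = 0.854). The third, 1554768_a_at, was at -0.13 (limma adjusted p = 0.372). The call on 236312_at was kept without mock replicate 3 (limma adjusted p = 0.0459) and lost when any other array was left out, with adjusted p values between 0.0698 and 0.156, and with trend and robust settings (0.0541).

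**Figure D2:**
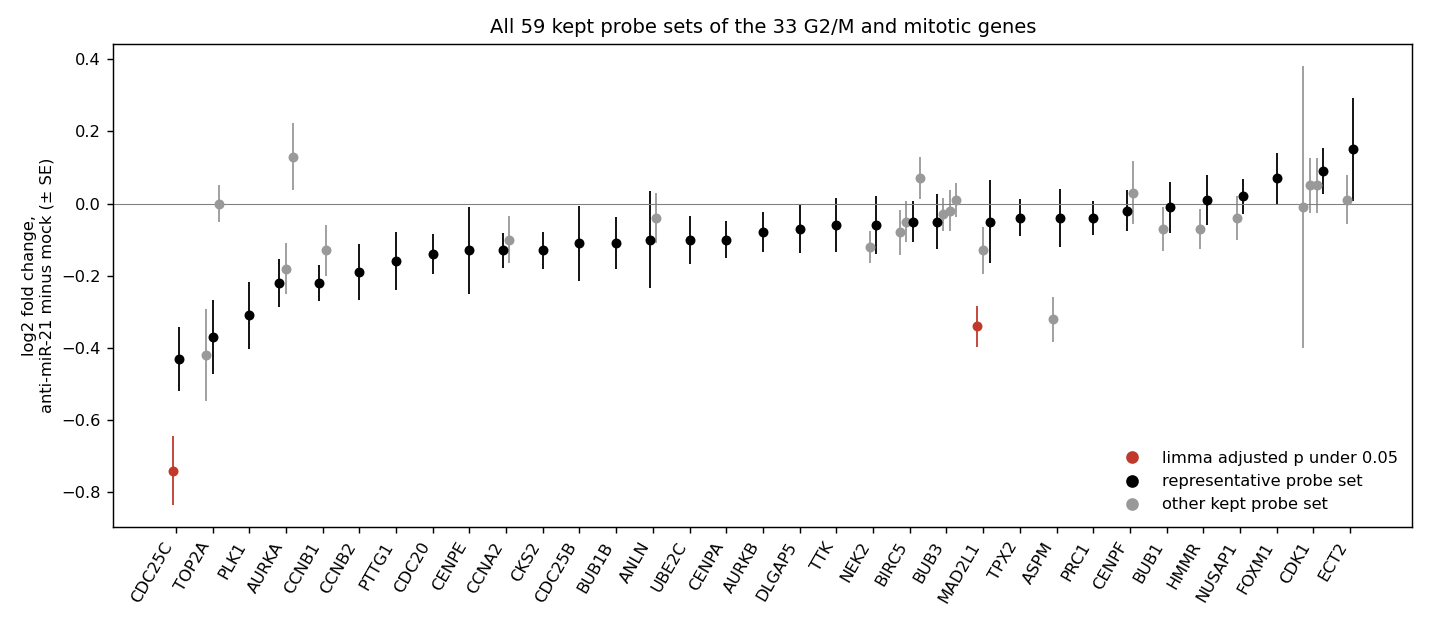
Log2 fold change, anti-miR-21 minus mock (y axis), of all 59 tested probe sets, grouped by gene (x axis, ordered by the representative probe set), with bars of ± 1 SE of the limma fit over 3 arrays a group. Red marks the 2 probe sets past an adjusted p of 0.05, of CDC25C and MAD2L1, black the representatives and grey the other probe sets.

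Genes of mitotic exit had negative differences that did not pass. CDC20, the activator of the anaphase-promoting complex that MAD2 holds back, measured 13.62, 13.53 and 13.59 in the anti-miR-21 arrays, against 13.66, 13.71 and 13.79 in the mock arrays. Treated and mock arrays were apart, with little room between anti-miR-21 replicate 1 and mock replicate 1 (-0.14 ± 0.0565 SE, limma adjusted p = 0.275). PTTG1, or securin, the inhibitor of separase, measured 13.81, 13.62 and 13.70 in the anti-miR-21 arrays, against 13.73, 13.92 and 13.95 in the mock arrays. Here the groups overlapped, with mock replicate 1 inside the treated range (-0.16, limma adjusted p = 0.367). UBE2C, the ubiquitin-conjugating enzyme of the complex, was at -0.10 (limma adjusted p = 0.47).

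TOP2A, the topoisomerase that untangles sister chromatids, measured 12.41, 12.44 and 12.48 on its representative in the anti-miR-21 arrays, against 13.04, 12.67 and 12.71 in the mock arrays. Here too the groups were apart, and mock replicate 1 stood above the other mock arrays. The difference was -0.37 ± 0.102 SE (limma adjusted p = 0.133), and without mock replicate 1 it was -0.25. A second bright probe set, 201291_s_at, was at -0.42 (limma adjusted p = 0.16), whereas the dim 237469_at was level in both groups, with means of 6.48 ± 0.05 in anti-miR-21 and 6.48 ± 0.03 in mock (SD, n = 3 each).

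CENPA, the centromeric histone H3 variant, measured 11.03, 10.94 and 10.92 in the anti-miR-21 arrays, against 11.04, 11.06 and 11.09 in the mock arrays. They did not overlap, but anti-miR-21 replicate 1 and mock replicate 1 were almost equal (-0.10, limma adjusted p = 0.368). CENPE, a kinetochore motor, and CENPF, a large kinetochore protein, were at -0.13 and -0.02 (limma adjusted p = 0.612 and 0.869).

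The genes of the spindle, the midzone and cytokinesis had no common direction, with 4 of 7 below 0 (57.1%, against 56.7% of all genes). DLGAP5, or HURP, which stabilises microtubules near chromosomes, measured 12.60, 12.43 and 12.51 in the anti-miR-21 arrays, against 12.68, 12.54 and 12.54 in the mock arrays, with overlap (-0.07, limma adjusted p = 0.626). ECT2, the exchange factor that activates RhoA for the cleavage furrow, measured 12.37, 12.55 and 12.34 in the anti-miR-21 arrays, against 12.60, 12.18 and 12.05 in the mock arrays. In ECT2 mock replicate 1 was above all treated arrays and the other mock arrays below them, so that its difference of 0.15 ± 0.143 SE had the widest error of the 33 representatives (limma adjusted p = 0.64).

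ANLN, or anillin, the scaffold of the contractile ring, measured 13.96, 13.96 and 13.91 in the anti-miR-21 arrays, against 14.37, 13.92 and 13.84 in the mock arrays, with mock replicate 1 again the highest (-0.10, limma adjusted p = 0.741). NUSAP1, a spindle microtubule binder, and PRC1, which bundles midzone microtubules, were at 0.02 and -0.04 (95% intervals -0.10 to 0.13 and -0.16 to 0.07). HMMR, a spindle assembly factor, was at 0.01 (limma adjusted p = 0.973). ASPM, a spindle pole protein, was at -0.04 on its representative (limma adjusted p = 0.83), but its dim probe set 239002_at measured 5.80, 5.73 and 5.81 in the anti-miR-21 arrays, against 6.15, 6.00 and 6.15 in mock (-0.32 ± 0.0623 SE, limma adjusted p = 0.0585).

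Of the 33 genes, 17 had several tested probe sets, 43 in all. In 10 of the 17 all probe sets of the gene had the same sign, negative in 9 and positive in ECT2, although the dim probe set of TOP2A among them was within rounding of 0. The signs were mixed in CDK1, AURKA, BIRC5, BUB3, CENPF, NUSAP1 and HMMR. A direct test of whether probe sets of 1 gene moved apart called 0 of the 43 (limma, against 1.03% of 14103 probe sets). At an unadjusted limma p under 0.05 were 10 of the 43 (23.3%), against 11.8% of the 14103. These 10 belong to AURKA, MAD2L1, TOP2A, CDC25C and ASPM. They are not separate results, because tests within 1 gene depend on each other and a gene with 2 probe sets gives the same p for both. The closest to a call were 208080_at of AURKA (0.33 above its other probe sets, limma adjusted p = 0.0924) and 236312_at of MAD2L1 (-0.25, limma adjusted p = 0.146). The 12 probe sets below the filter, of 8 genes, had means between 1.89 and 3.96 and were not tested.

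The arrays of a group did not behave alike over these genes. The median deviation of the 33 representatives from their 6-array means was 0.015, -0.073 and -0.046 in anti-miR-21 replicates 1, 2 and 3, against 0.053, 0.036 and 0.069 in the mock arrays. On these medians the groups were apart, with anti-miR-21 replicate 1 nearest to mock. The medians over all 10848 genes were also apart, by less, at -0.016 to -0.002 in the anti-miR-21 arrays, against 0.004 to 0.016 in the mock arrays. Anti-miR-21 replicate 2 was the lowest of the 6 arrays for 16 of the 33 genes, and the highest array was mock replicate 3 for 14 and mock replicate 1 for 12.

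By role, the medians separated the groups in the cyclin-CDK engine, where the treated arrays lay at -0.030, -0.113 and -0.055, against 0.031, 0.072 and 0.096 in mock. They also did so narrowly in the mitotic kinases, where the nearest arrays lay at -0.006 (treated) and 0.013 (mock), and in the centromere group (0.027 and 0.042). In the anaphase-promoting complex group and in the spindle, midzone and cytokinesis group the treated and mock arrays overlapped. In the spindle checkpoint group the treated arrays lay between -0.045 and -0.008, inside a mock range of -0.104 to 0.158. The difference between role groups was not tested.

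**Figure D3:**
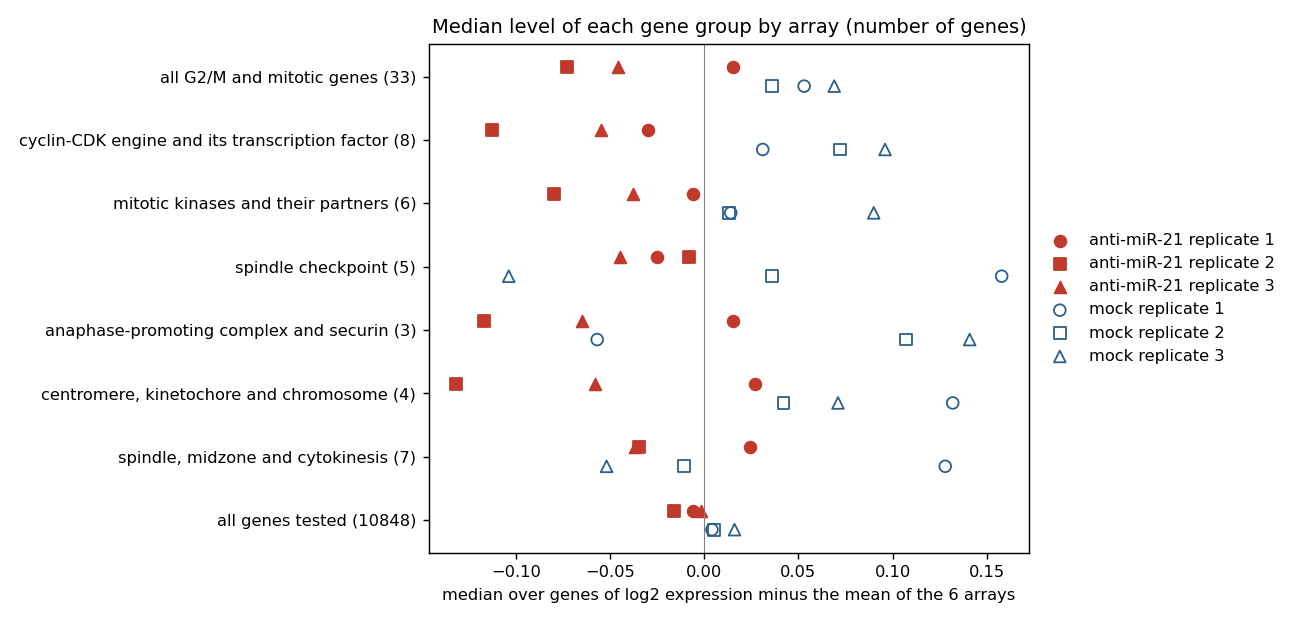
Median over genes of log2 expression minus the 6-array mean (x axis) for all 33 genes, each role group and all 10848 genes tested (y axis, number of genes in brackets), with filled red symbols for the anti-miR-21 arrays and open blue symbols for the mock arrays. The 3 red symbols lie left of all blue ones for the 33 genes, the cyclin-CDK engine, the mitotic kinases, the centromere group and all genes tested, and inside the blue range for the spindle checkpoint. Red and blue overlap in the other role groups.

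On the representative probe sets, mock replicate 1 set the sign for part of the list. It exceeded the mean of the other mock arrays in 14 of the 33 genes, by 0.49 in ANLN, 0.48 in ECT2, 0.35 in TOP2A and 0.35 in MAD2L1, and lay below it in CDC25B (-0.29), CDC25C (-0.22) and PTTG1 (-0.21). Over the 33 genes this difference had an SD of 0.199, against 0.170 over all genes. Without that array the log2 fold changes of ANLN, MAD2L1, BUB1, ASPM, NEK2 and BUB3 were 0.06, 0.07, 0.06, 0.04, 0.02 and 0.01, against negative values with it. Those of CDC25C, PLK1, CCNB1, PTTG1, AURKA and CDC25B were -0.50, -0.37, -0.24, -0.23, -0.23 and -0.21. Other probe sets of 4 genes that changed sign stayed below 0 with any array left out. These were 236312_at and 1554768_a_at of MAD2L1, 239002_at of ASPM, 211080_s_at of NEK2 and 215509_s_at of BUB1. The second probe set of ANLN was at 0.02 without mock replicate 1, and the other probe sets of BUB3 had mixed signs. What sets mock replicate 1 apart was not tested.

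**Figure D4:**
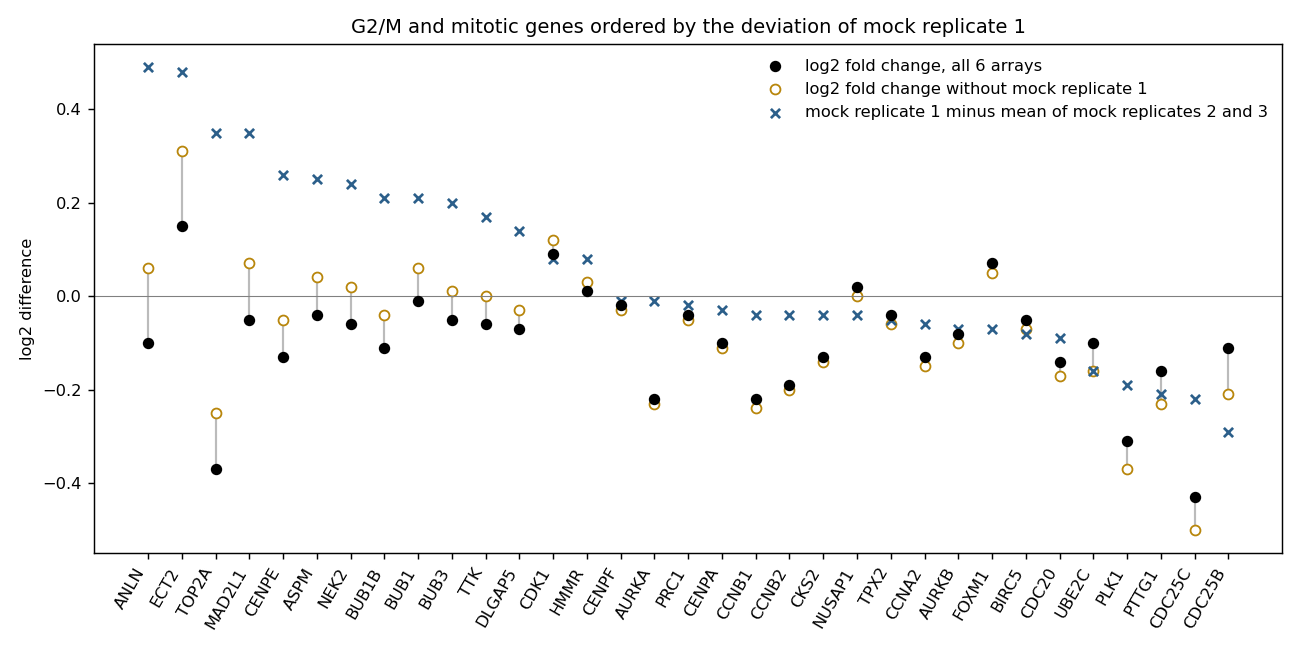
For each of the 33 genes (x axis), the log2 fold change with all 6 arrays (black), the log2 fold change without mock replicate 1 (open yellow) and mock replicate 1 minus the mean of mock replicates 2 and 3 (blue crosses), all as log2 differences (y axis). The shift between the first 2 follows from the third by arithmetic, and CDC25C, TOP2A, PLK1, CCNB1 and AURKA stay below -0.2 in both.

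Other genes of the pathway were read from lists chosen by function, but with earlier results of these data known. The counts in these lists are therefore descriptions only. Among 27 genes of G2/M entry control and the MuvB complexes, 1 rose (against 0.913% of all genes), 1 fell (against 1.22%) and 25 did not pass, with a median of 0.011. WEE1, the kinase that holds CDK1 inactive and opposes CDC25C, measured 11.66, 11.79 and 11.67 in the anti-miR-21 arrays, against 11.43, 11.28 and 11.35 in the mock arrays. All treated arrays lay above mock, and WEE1 rose 1.28-fold (log2 fold change 0.36 ± 0.0635 SE, limma adjusted p = 0.0466). Its second probe set was at 0.30 (limma adjusted p = 0.0888), and leaving out any array ended the call (limma adjusted p between 0.0539 and 0.166), as did dropping the filter (0.0691).

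CCNH and CDK7 form the kinase that phosphorylates the activation loop of CDK1. CCNH fell 2.76-fold, with 10.69, 10.51 and 10.64 in the anti-miR-21 arrays, against 12.03, 12.07 and 12.13 in mock (limma adjusted p = 0.000686), and CDK7 was at -0.30 ± 0.0596 SE (limma adjusted p = 0.0615). CDK7 passed with the filter at a mean of 6 (0.0457), with trend and robust settings (0.0403) and with averaged probe sets (0.0402). CCNH thus differed far more than any of the 33 genes.

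Among 44 other mitotic genes, 1 fell (against 1.22% of all genes), 0 rose (against 0.913%) and 43 did not pass. Their median was -0.011, and 24 were below 0 (54.5%, against 56.7% of all genes). The gene that fell was RACGAP1, which encodes the centralspindlin subunit that recruits ECT2 to the midzone. It measured 13.30, 13.26 and 13.27 in the anti-miR-21 arrays, against 13.71, 13.56 and 13.65 in the mock arrays, without overlap. This 1.28-fold fall (-0.36 ± 0.0562 SE, limma adjusted p = 0.03) did not pass when any array was dropped (limma adjusted p between 0.0563 and 0.133). BORA, an activator of AURKA and PLK1, was at -0.22 and CCNB1IP1, a ubiquitin ligase named for binding cyclin B1, at 0.32 (limma adjusted p = 0.0986 and 0.0708). CCNB1IP1 passed with averaged probe sets (0.0462).

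Of 12 mitotic kinesins, 0 passed (against 2.13% of all genes), with a median of -0.072. KIF2C, a microtubule depolymerase of the centromere, was at -0.32 (limma adjusted p = 0.0569). KIF2C passed with the filter at a mean of 6 (0.041), with trend and robust settings (0.0371), with averaged probe sets (0.0462) and without anti-miR-21 replicate 1 (0.0353). KIF15, a spindle motor, and KIF18A, which dampens chromosome movements, were at 0.15 and -0.19 (limma adjusted p = 0.224 and 0.309). At an unadjusted p under 0.05, 2 of the 12 (16.7%) passed limma, against 18.1% of all genes. Of 34 genes of G1/S and DNA replication, 0 passed (against 2.13% of all genes), with a median of -0.027. Below 0 were 18 (52.9%, against 56.7% of all genes), and 8 had an unadjusted limma p under 0.05 (23.5%, against 18.1%). GINS1, a subunit of the replicative helicase, CCNE1, or cyclin E1, and CDK6, a G1 kinase, were at -0.27, -0.32 and 0.24 (limma adjusted p = 0.0528, 0.0843 and 0.119). GINS1 passed with the filter at a mean of 6 (0.0398), with quantile normalization (0.0496), with trend and robust settings (0.0239) and with averaged probe sets (0.0356). No test compared these lists with the 33 genes.

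Over the whole array, 50.4% of the variance lay on a first principal component that placed anti-miR-21 replicate 1 at -3.51 and the other treated arrays at -20.11 and -19.63, against 7.25 to 19.95 for mock, of which mock replicate 1 was the closest to the treated arrays. The difference between the 3' and 5' control probe sets of ACTB, a measure of RNA integrity, was 0.589 to 0.606 in the anti-miR-21 arrays, against 0.491 to 0.628 in mock. Of 13 hepatocyte markers on the array, 10 had no probe set above the filter, ALB and APOB among them. The 3 kept were SERPINA1, at 11.82 to 11.99, and AFP and TF, which lay close to the filter between 3.98 and 4.43. Of 5 epithelial markers, the keratins KRT8, KRT18 and KRT19 measured 14.11 or more on every array, EPCAM lay between 6.98 and 7.71, and CDH1 was below the filter. Of 10 endothelial markers TEK, ROBO4 and EGFL7 were kept, without PECAM1 and CDH5. ROBO4 measured 8.42 to 8.62 in the anti-miR-21 arrays, against 7.90 to 8.35 in mock, and EGFL7 lay between 7.23 and 7.59. No marker passed the test. At an unadjusted limma p under 0.05, 2 of 3 endothelial, 1 of 4 kept epithelial and 0 of 3 hepatocyte markers passed, against 18.1% of all genes. The summed level of the hepatocyte list, nearly all of it SERPINA1, was 11.98 to 12.03 in the anti-miR-21 arrays, against 11.86 to 11.97 in mock. That of the endothelial list was 9.16 to 9.28, against 8.91 to 9.21 (log2 of the sums), and the part of both in the results was not tested.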

How the data were processed

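RNA of 6 SK-Hep1 samples was measured on 1 single-colour Affymetrix array each. Log2 expression of 54675 probe sets was deposited by the authors, and the submitters' processing notes name GCRMA without a version. The labels cite an Argonaute immunoprecipitation protocol for collection but call the molecule total RNA, which is not settled here. Values ran from 0.0443 to 16.2 and were used without further normalization. Dim probe sets sit near a shared floor after GCRMA, which makes their differences less certain. The single probe sets called dim in the results are so beside their gene's representative. They measured 5.73 or more, against array medians of 3.02 to 3.16.

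After 62 controls were left out, probe sets with a mean of at least 4 over the 6 arrays were kept (22408). Gene names came from the platform annotation, with symbols checked through Entrez identifiers against RefSeq (41037 of 41091 single-gene probe sets matched). The brightest kept probe set that lists 1 gene alone represented that gene. Groups were compared with limma 3.58.1 in R 4.3.3 (lmFit, eBayes, group as the one term, two-sided). Adjusted p values are Benjamini-Hochberg values over the 22408, called under 0.05. A second limma fit compared each probe set with the mean of its gene's other probe sets. Both fits were tested on simulated data. The precision is limited by 3 arrays a group.

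The genes and lists were chosen with earlier results of these data known. All 33 genes are named, those with a call and the 2 with the smallest p of each role group with every array's value, and from each other list the 3 genes with the smallest p. ANLN, CDK1 and dim probe sets that differ from their gene's representative were also given in full, after their values were seen. The alternatives tried were other filters, median centring, quantile normalization, trend and robust moderation, averaged probe sets, probe sets with unique names only, a replicate block and each array left out. No coordinates are given for probe sets. Promoter and microRNA sequences are from RefSeq, GRCh38.p14.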

Additional observations from a re-analysis of the deposited data

How the results depend on the processing

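The median log2 fold change of the 33 genes lay between -0.092 and -0.075 over the alternatives that kept all 6 arrays, and between -0.110 and -0.051 with 1 array left out. The number of genes below 0 was 15 of the 20 left when probe sets ending in _s_at, _x_at or _a_at were dropped, 28 or 29 of 33 in the other settings with 6 arrays, and 22 to 30 with 1 array left out. The share of all genes below 0 was 35.0% without the filter on dim probe sets, against 56.7% with it. It was 54.5% with uniquely named probe sets and 55.4% to 58.0% with 1 array left out. With the filter at 6 and with averaged probe sets 1 of the 33 genes fell (CDC25C), as did 1 with trend and robust moderation (CCNB1). With uniquely named probe sets 1 of the 20 left fell (MAD2L1), and 0 to 1 fell with 1 array left out. Of all genes, 188 of 9745 fell with the filter at 6 and 194 of 10848 with averaged probe sets. With trend and robust moderation 163 of 10848 fell, and with uniquely named probe sets 114 of 7970. The count of their probe sets that fell was 1 with uniquely named probe sets, 0 with the replicate block and 0 to 2 with 1 array left out. It was 0 without anti-miR-21 replicate 3 or mock replicate 2, and 2 without mock replicate 1, both of CDC25C. No gene of the 33 rose in any setting run. Over all genes, 161 rose with averaged probe sets, and 14 to 91 rose and 24 to 135 fell with 1 array left out. Over all probe sets, 158 rose without the filter, 155 fell among uniquely named ones, and 47 to 345 rose and 47 to 227 fell with 1 array left out. Leaving out an array or keeping uniquely named probe sets enters fewer arrays or features, dropping the filter enters more features, and the causes were not tested further.

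The replicate numbers do not pair the samples: deviations of same-numbered arrays correlated at -0.361, -0.266 and -0.002, and no array correlated best with its own number. With the replicate block 54 probe sets rose and 37 fell, and 16 genes rose and 16 fell. The adjusted p under the block was 0.08 for the CDC25C probe set, 0.146 for that of MAD2L1, 0.182 for WEE1 and 0.128 for RACGAP1. No called value changed sign. Among the 33 genes, 17 changes of sign in 11 genes occurred, none of them in a called value. They came with an array left out, with averaged probe sets (CENPF, NUSAP1 and HMMR) or with uniquely named probe sets, where AURKA was at 0.13 and BIRC5 at 0.07.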
